A study of Mus musculus with 10 samples.

Results

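The histone deacetylases examined here are 10 mouse genes, Hdac1, Hdac2, Hdac3, Hdac4, Hdac5, Hdac6, Hdac7, Hdac8, Hdac9 and Hdac11, taken by name from the 31053 genes measured in single-cell RNA sequencing libraries of intestinal organoids and colonic crypts. The list was set by gene name, not by measured level, but with earlier results of these data known. All 10 genes are described whatever their values. Hdac10, a further enzyme of the family, was not analysed here, and counts given for the family refer to the listed genes. For each gene, unique molecular identifiers (UMIs, one per captured transcript) were added up over the cells of each library or of each annotated cell class.

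Organoids grown from crypts of the mouse proximal small intestine in Matrigel were sampled in 3 media. ENR medium contained EGF, Noggin and R-Spondin 1. Hyper medium contained EGF, R-Spondin 1 conditioned medium, FGF2, the BMP receptor inhibitor LDN193189, GSK-3 Inhibitor XV, the p38 inhibitor Pexmetinib, the histone deacetylase inhibitor valproic acid (VPA) and the EZH2 inhibitor EPZ6438. The -VE medium was Hyper medium from which VPA and EPZ6438 had been left out together, so the contributions of the 2 compounds cannot be told apart in these libraries. There were 3 libraries of ENR-organoids (passages 2, 7 and 3 for replicates 1, 2 and 3), 2 of -VE-organoids (passages 1 and 6) and 3 of Hyper-organoids (passages 1, 6 and 3). Hyper-organoids 1 and 2 and both -VE libraries were derived from ENR-organoids, whereas Hyper-organoids 3 and ENR-organoids 3 were started from primary crypts. One library of colonic crypts from normal mice and 1 from mice given dextran sulfate sodium (DSS), which injures the colonic epithelium, completed the series. By the study's methods, mice aged 6 to 12 weeks gave crypts and organoids and female mice aged 8 weeks served for the colitis model. C57BL/6 mice and a cross carrying Lgr5-EGFP-IRES-creERT2 are named there, but not which of them gave each library. Nothing in the labels says that replicates came from separate animals, so p-values measure the spread between these libraries.

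Histone deacetylases remove acetyl groups from lysines of histones and other proteins, and acetylation of histone tails is associated with open, transcribed chromatin. Class I enzymes (Hdac1, Hdac2, Hdac3 and Hdac8) are mainly nuclear, and the first 3 work inside corepressor complexes. Class IIa enzymes (Hdac4, Hdac5, Hdac7 and Hdac9) have weak catalytic activity of their own and shuttle between nucleus and cytoplasm as partners of MEF2 transcription factors, Hdac6 (class IIb) is a cytoplasmic tubulin deacetylase, and Hdac11 is the sole class IV enzyme. In the intestinal epithelium, Hdac1 and Hdac2 are known to act redundantly in crypt homeostasis, and Hdac3 is known to be needed for Paneth cells and for the response to commensal bacteria. VPA inhibits the activity of class I enzymes most strongly; transcript counts do not measure that activity.

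Positions of the genes are the bounds of the GENCODE vM21 annotation on GRCm38. Hdac1 (ENSMUSG00000028800) spans chr4:129516104-129542713, Hdac2 chr10:36974544-37001889 and Hdac8 chrX:102284639-102505359. Hdac4 spans chr1:91928779-92195699, Hdac5 chr11:102194432-102230166, Hdac7 chr15:97792664-97844502 and Hdac9 chr12:34047580-34917095. Hdac6 spans chrX:7930120-7947889 and Hdac11 chr6:91156665-91174692. RefSeq promoter windows of GRCm38.p6 were matched for 8 of the 10 genes, and the 250 bases upstream of the start site were searched for the GC box, GGGCGG or CCGCCC on the other strand, which is bound by SP-family factors. No window was matched for Hdac1 or Hdac3, and among the 8 matched genes Hdac4 and Hdac6 had the most GC boxes. Their transcript levels also ran most closely together over cell classes among the 7 members that averaged at least 10 CPM (UMI counts scaled to library size) over classes and libraries. Those 7 include Hdac1 and Hdac3. Hdac6 reached 10 CPM only through enteroendocrine cells, with a mean of 20.1 CPM there. Its means were 6.20 in stem, 8.17 in transit-amplifying and 6.15 in goblet cells. No link between GC boxes and levels was tested. Both windows are shown 5′ to 3′ on the strand of the gene, with GC boxes in capitals.

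Hdac4, chr1:92180342-92180591, minus strand: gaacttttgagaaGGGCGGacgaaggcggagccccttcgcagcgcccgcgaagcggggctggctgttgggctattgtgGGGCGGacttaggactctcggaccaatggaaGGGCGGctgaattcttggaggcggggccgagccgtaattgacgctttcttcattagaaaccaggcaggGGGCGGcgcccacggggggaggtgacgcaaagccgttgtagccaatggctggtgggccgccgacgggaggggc

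Hdac6, chrX:7947890-7948139, minus strand: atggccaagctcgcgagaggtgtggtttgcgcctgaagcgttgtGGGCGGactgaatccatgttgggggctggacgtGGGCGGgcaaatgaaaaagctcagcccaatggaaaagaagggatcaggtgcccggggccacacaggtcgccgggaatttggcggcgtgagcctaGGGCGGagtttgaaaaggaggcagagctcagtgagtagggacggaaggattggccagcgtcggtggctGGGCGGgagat

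Each of these windows held 4 GC boxes, a number reached by 3.34% of the 32851 RefSeq promoter windows of the same length, whereas 32.7% held at least 1. The Hdac6 window ended at the annotated start of the gene, and the Hdac4 window belonged to a start site 15358 bases inside the GENCODE bounds of the gene. Hdac2, Hdac5 and Hdac11 had 1 GC box each, Hdac7 had 1 in 1 of its 4 windows, and Hdac8 and both Hdac9 windows had none. A match of these letters is a description and was not linked to binding of any factor.

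The 8 organoid libraries held 22139 cells kept by the authors, with 89124015 to 170019527 UMIs per library and medians of 38174 to 50652 UMIs per cell. No 2 libraries shared more than 5 cell barcodes. The class composition differed strongly between media, and this bears on every value summed over all cells. Enterocyte progenitors made up 22.2 to 34.5% of cells in ENR-organoids, 4.29 to 4.39% in -VE-organoids and 0.0852 to 0.107% in Hyper-organoids, while the stem class made up 9.75 to 14.7%, 24.3 to 28.2% and 40.0 to 44.1%. In sums over all cells, fewer cells of a type and less RNA per cell cannot be told apart. Marker transcripts were checked in 8 annotated classes, all but the one labelled TC. Each of the 8 had more of its own markers than the other cells in every library that held it, by as little as 1.03-fold. The study names most of these markers for its own annotation of the same cells, so this was not an independent check of the labels. In Hyper-organoids 1, 2 and 3 the stem markers together had 922.8, 294.5 and 267.8 CPM in the stem class. Their other cells had 877.8, 280.3 and 260.5. In ENR-organoids the stem class had 3936, 4560 and 3157 and the other cells 1586, 1547 and 896.2. In -VE-organoids the values were 2664 and 1958, and 1816 and 1295. These markers thus set the stem class of Hyper-organoids apart only weakly. Median mitochondrial shares were 8.22 to 9.82% in Hyper-organoids, 7.90 to 8.82% in ENR-organoids and 7.39 to 7.61% in -VE-organoids; their part in the results was not tested.

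Hdac1, a catalytic subunit of the NuRD, Sin3 and CoREST complexes, showed the clearest difference of the family. Levels summed over all kept cells, as counts-per-million (CPM) values after library scaling, were 66.3, 67.9 and 64.0 in ENR-organoids 1, 2 and 3. They were 70.3 and 67.8 in -VE-organoids 1 and 2, and 99.7, 99.5 and 96.3 in Hyper-organoids 1, 2 and 3. All 3 Hyper libraries lay above all 5 others, which ran from 64.0 to 70.3 CPM. Means were 66.1 ± 1.95 (SD, n = 3), 69.0 ± 1.78 (n = 2) and 98.5 ± 1.91 (n = 3). The log2 difference was 0.51 (SE 0.052) for Hyper against -VE and 0.58 (SE 0.046) for Hyper against ENR, with adjusted p = 0.000164 and 2.07e-05 by the quasi-likelihood test of edgeR over all genes. Hdac1 passed this test in each of the alternatives that were run, with an adjusted p of at most 0.00292 against -VE and 0.000233 against ENR.

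Hdac2, the close paralogue of Hdac1 that occupies the same complexes, had 76.9, 78.5 and 73.8 CPM with ENR, 84.2 and 83.7 with -VE and 87.4, 89.7 and 80.4 with Hyper medium. Its levels overlapped between Hyper and -VE, where the log2 difference was 0.03 with a 95% interval of -0.11 to 0.17. Against ENR the ranges did not overlap and the log2 difference was 0.17 (edgeR adjusted p = 0.0282), but the call was lost in 5 of 14 alternatives, among them a draw of equal cell numbers per class (log2 difference 0.095, edgeR adjusted p = 0.121). The other 4 left out ENR replicate 1 or 3 or Hyper replicate 1 or 2, with differences of 0.17, 0.15, 0.16 and 0.14. The number of Hdac1 UMIs per Hdac2 UMI was 0.862 to 0.868 in ENR-organoids and 0.810 to 0.835 in -VE-organoids, and 1.11 to 1.20 in Hyper-organoids. In these sums over all kept cells Hdac1 was thus the less abundant of the paralogues in each ENR and -VE library and the more abundant in each Hyper library. UMIs of this 3′ kit do not scale with transcript length. The order was not the same in every class. In enteroendocrine cells of Hyper replicates 1, 2 and 3 there were 273, 255 and 185 UMIs of Hdac1 and 314, 247 and 228 of Hdac2. In enterocytes Hdac1 had more UMIs than Hdac2 in each ENR and -VE library, mostly by little. ENR replicates 1, 2 and 3 had 277, 527 and 352 UMIs of Hdac1 and 274, 501 and 286 of Hdac2. For -VE replicates 1 and 2 the numbers were 278 and 342 for Hdac1 and 258 and 336 for Hdac2. Only ENR replicate 3 had the 2 genes well apart.

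Hdac3 (chr18:37935844-37955016), the catalytic subunit of the NCoR/SMRT complexes, had 73.6, 75.9 and 63.8 CPM with ENR, 80.7 and 80.3 with -VE and 84.3, 81.4 and 72.3 with Hyper medium. The third replicate was the lowest in both media that had one, and the groups overlapped in both comparisons with Hyper. The log2 difference was -0.02 against -VE (95% interval -0.23 to 0.18) and 0.16 against ENR (95% interval -0.03 to 0.34), neither past the test. A replicate block for the culture series left the difference from ENR at 0.16 and took it past the test, with an edgeR adjusted p of 0.00771. Without Hyper replicate 3 it was 0.22 and passed as well (edgeR adjusted p = 0.0395).

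Hdac8, a class I enzyme that acts outside the large corepressor complexes and deacetylates cohesin, was the least abundant of class I. It stood at 5.51, 5.26 and 5.29 CPM with ENR, 4.85 and 5.00 with -VE and 5.72, 6.83 and 6.53 with Hyper medium. The Hyper libraries lay above the others without overlap, by 0.37 in log2 against -VE (edgeR adjusted p = 0.0197) and by 0.25 against ENR (edgeR adjusted p = 0.0480). The first call was lost without -VE replicate 1 (0.36), without -VE replicate 2 (0.41) and without Hyper replicate 2 (0.32). The second was lost in 9 of 14 alternatives, namely without each single library except Hyper replicate 1 (0.20 to 0.27), without the filter on low counts (0.26) and with equal cells of each class (0.14).

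**Figure D1:**
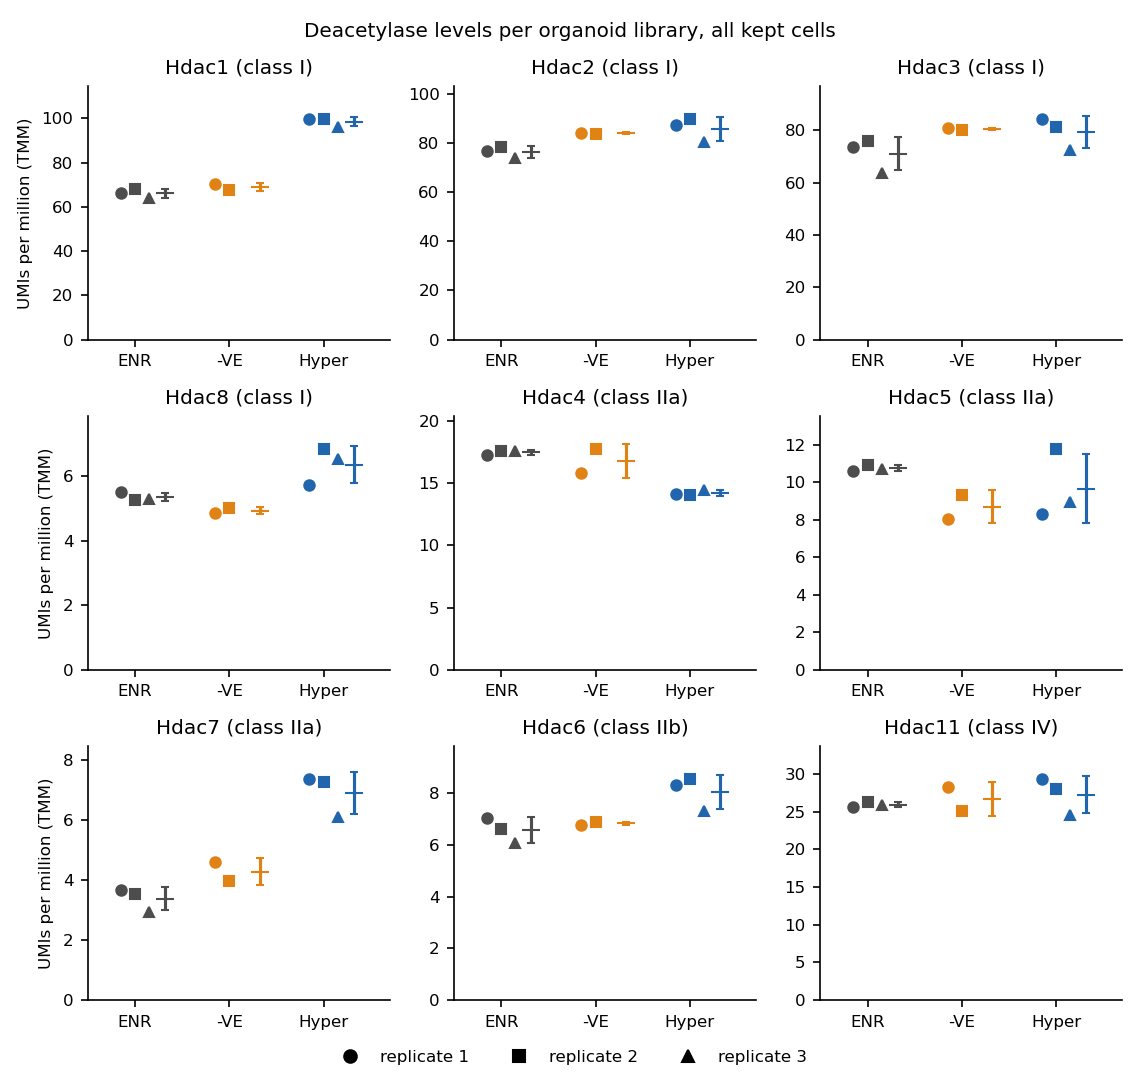
Levels of the 9 tested histone deacetylases in the organoid libraries, as CPM after library scaling; each point is 1 library, its shape the replicate, and beside the points stand the group mean and SD (ENR n = 3, -VE n = 2, Hyper n = 3). Hdac1 stood at 96.3 to 99.7 in Hyper-organoids and at 64.0 to 70.3 in the other 5 libraries, and Hdac4 ran the other way, with 14.1 to 14.5 in Hyper-organoids.

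Among class IIa, Hdac7, known for its roles in vascular cells and developing lymphocytes, had the largest fold difference of the family. Its levels were 3.66, 3.52 and 2.95 CPM with ENR, 4.60 and 3.97 with -VE and 7.36, 7.27 and 6.11 with Hyper medium. No library of one medium reached the range of another, with ENR lowest and Hyper highest. The log2 difference was 0.69 (SE 0.14, edgeR adjusted p = 0.00470) against -VE and 1.03 (SE 0.13, edgeR adjusted p = 0.000207) against ENR. Hdac7 was the 1 member that passed the test with at least a 2-fold difference, which 22.8% of all genes did for Hyper against ENR. With equal numbers of cells of each class the difference from ENR was 0.79 (edgeR adjusted p = 0.000979), past the test but under 2-fold.

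Hdac4, a MEF2 corepressor, was the 1 member that fell in sums over all kept cells. Its levels were 17.3, 17.5 and 17.5 CPM with ENR, 15.8 and 17.7 with -VE and 14.1, 14.1 and 14.5 with Hyper medium. Every Hyper library lay below every other library, with log2 differences of -0.24 against -VE (edgeR adjusted p = 0.0172) and -0.30 against ENR (edgeR adjusted p = 0.00280). The -VE libraries differed from each other by more than the Hyper libraries did, and without -VE replicate 2 the first difference was -0.14 and no longer passed the test (edgeR adjusted p = 0.205).

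Hdac5, a further MEF2 corepressor, ranged from 10.6 to 10.9 CPM with ENR, was 8.07 and 9.34 with -VE and 8.29, 11.8 and 8.96 with Hyper medium. Hyper replicate 2 was above and the other Hyper libraries below all ENR libraries, and neither comparison passed the test (log2 differences 0.15 and -0.15). Without Hyper replicate 2 the difference from ENR was -0.32 and passed (edgeR adjusted p = 0.0235). Hdac9, best known from muscle and nerve, was close to absent, with 3 UMIs in the 8 organoid libraries together, 1 each in -VE replicate 2, ENR replicate 3 and Hyper replicate 3. It did not pass the filter on low counts and was not tested.

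Hdac6, the tubulin deacetylase, had 7.05, 6.62 and 6.07 CPM with ENR, 6.78 and 6.87 with -VE and 8.31, 8.52 and 7.30 with Hyper medium. Hyper libraries were above the others without overlap. The difference was 0.29 in log2 against ENR (edgeR adjusted p = 0.0256). It was lost with equal cells of each class (0.17), without ENR replicate 2 or 3 (0.30 and 0.25) and without Hyper replicate 1 or 2 (0.27 and 0.25). Against -VE it was 0.24 (edgeR adjusted p = 0.0905), where a replicate block for the culture series gave 0.30 and an adjusted p of 0.0172, and leaving out Hyper replicate 3 gave 0.31 and an adjusted p of 0.0384. Hdac11, which removes long-chain fatty acyl groups as well as acetyl groups, had 25.6, 26.4 and 25.9 CPM with ENR, 28.3 and 25.1 with -VE and 29.3, 28.0 and 24.6 with Hyper medium. The groups overlapped, and the 95% intervals of the log2 difference were -0.16 to 0.23 against -VE and -0.10 to 0.25 against ENR.

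Counted over the family, 4 of 9 tested members passed the test between Hyper- and -VE-organoids (47.5% of all 16037 genes tested), with Hdac1, Hdac7 and Hdac8 higher and Hdac4 lower. Over all genes 4003 were higher and 3616 lower. Against ENR 6 of 9 passed (56.8% of all genes), with Hdac1, Hdac2, Hdac6, Hdac7 and Hdac8 higher and Hdac4 lower, while over all genes 4727 were higher and 4381 lower. Levels did not overlap for 5 of 9 members against -VE and for 6 of 9 against ENR, while 67.0% and 64.4% of all genes had groups that did not overlap. Against ENR the count was 3 with equal cells of each class (53.4% of all genes) and 3 without ENR replicate 3 (53.3%), Hdac1, Hdac4 and Hdac7 in both. Against -VE it was 2 without -VE replicate 2 (27.4% of all genes), namely Hdac1 and Hdac7. The shares of the family were thus near those of all genes, and no test was made of the split in direction. The median log2 difference of the members was 0.15 against -VE and 0.17 against ENR, with medians over all genes of 0.014 and -0.0073. The 2 comparisons use the same Hyper libraries.

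Between -VE- and ENR-organoids, which both lacked VPA and EPZ6438, none of the 9 members passed the test of edgeR (7.87% of all genes did) and none passed by DESeq2 (14.6% of the genes it gave an adjusted p). At an unadjusted p of edgeR under 0.05 there was 1 member, Hdac7, beside 3829 of all 16037 genes tested. Hdac7 had a log2 difference of 0.34 and an edgeR adjusted p of 0.185. The log2 differences of the other members ran from -0.30 (Hdac5) to 0.18 (Hdac3). Levels of the groups did not overlap for 5 of 9 members, beside 45.7% of all genes.

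The share of class I among the UMIs of the 10 listed genes was 76.6 to 77.8% in ENR-organoids, 79.0 to 79.1% in -VE-organoids and 79.9 to 80.6% in Hyper-organoids. Their total, on unscaled CPM, was 254 to 285, 290 to 291 and 333 to 368, so that each Hyper library lay above all others on this measure. Hdac1 alone made up 28.7 to 30.4% of the total in Hyper-organoids and 22.6 to 23.7% in the other libraries. Totals after the library scaling used for the levels above were not computed.

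Sums within 1 annotated class are free of differences in the shares of the classes. They are not free of differences inside a class, since the study's own clustering kept stem and transit-amplifying (TA) cells of Hyper- and ENR-organoids apart, and the deposited labels give the class without those clusters. In the stem class, Hdac1 was 69.4, 71.2 and 72.7 CPM with ENR, 74.7 and 69.6 with -VE and 94.8, 94.6 and 91.6 with Hyper medium. In TA cells the levels were 69.2, 71.7 and 69.0, then 71.4 and 70.3, and then 106, 106 and 106. Hyper libraries were above all others in both classes, and the 3 Hyper values of the TA cells were within 1 CPM of one another. In goblet cells Hdac1 ranged from 46.8 to 57.1 CPM in the ENR and -VE libraries and from 76.2 to 85.0 in Hyper-organoids, and in enteroendocrine cells from 70.6 to 86.6 and from 100 to 118. Hdac1 was the sole member past the test in each of the 4 classes and in both comparisons. Its log2 difference from -VE was 0.38 in stem, 0.58 in TA, 0.55 in goblet and 0.53 in enteroendocrine cells, with edgeR adjusted p = 0.00105, 3.85e-05, 0.00184 and 0.0455. Against ENR it was 0.40, 0.60, 0.64 and 0.42, with edgeR adjusted p = 0.000322, 7.77e-06, 0.000221 and 0.0442.

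The other members passed the test in fewer classes. In the stem class Hdac1 was the 1 member of 9 past the test in both comparisons (43.9% of all genes against -VE and 49.3% against ENR). Hdac7 in the stem class was 5.56, 7.11 and 3.75 CPM with ENR, 5.59 and 4.66 with -VE and 7.64, 7.46 and 6.29 with Hyper medium. ENR replicate 2 lay inside the Hyper range, and the log2 differences were 0.48 against -VE (edgeR adjusted p = 0.0858) and 0.35 against ENR (edgeR adjusted p = 0.167). Under a replicate block for the culture series the stem-class difference of Hdac7 from -VE was 0.61 and passed the test (edgeR adjusted p = 0.0135), which gave 2 members in place of 1. It also passed without ENR replicate 3 (0.51) and in stem cells thinned to 10000 UMIs each (0.77), and the difference from ENR passed without ENR replicate 2 (0.60). Hdac8 was higher than in -VE by 0.39 without passing, and passed without Hyper replicate 1 (0.49), without ENR replicate 3 (0.41), with relative log expression size factors (0.42) and in thinned cells (0.73). Hdac5, at 0.20, passed without Hyper replicate 1 (0.36).

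In TA cells 4 of 9 members passed against -VE (47.3% of all genes), namely Hdac1, Hdac7, Hdac6 and Hdac8, each of them higher. Hdac7 there was 3.76, 3.31 and 2.97 CPM with ENR, 3.97 and 3.66 with -VE and 7.12, 7.13 and 6.06 with Hyper medium, a log2 difference of 0.83 against -VE and 1.02 against ENR (edgeR adjusted p = 0.00134 and 0.000164). Hdac6 was higher by 0.35 and 0.28 (edgeR adjusted p = 0.0283 and 0.0400). Against ENR 4 of 9 members passed in TA cells (55.5% of all genes), with Hdac1, Hdac6 and Hdac7 higher and Hdac4 lower by 0.27 in log2. In goblet cells Hdac1 was the 1 member past the test against -VE (20.8% of all genes). Against ENR Hdac5 passed there as well (2 of 9, beside 31.3% of all genes), with 11.3 to 14.8 CPM in ENR-organoids and 7.22 to 9.32 in Hyper-organoids, a log2 difference of -0.58 (edgeR adjusted p = 0.0322). In enteroendocrine cells, the smallest of the 4 classes with 61 to 107 cells per library, Hdac1 was the 1 member past the test against -VE (5.57% of all genes) and against ENR (14.6%). Hdac7 and Hdac6 had the opposite sign there from their differences over all cells, without passing the test. The log2 differences from -VE and ENR were -0.36 and -0.25 for Hdac7, with groups that overlapped. For Hdac6 they were -0.15 and -0.67, the second with every Hyper library below every ENR library (edgeR adjusted p = 0.0791).

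**Figure D2:**
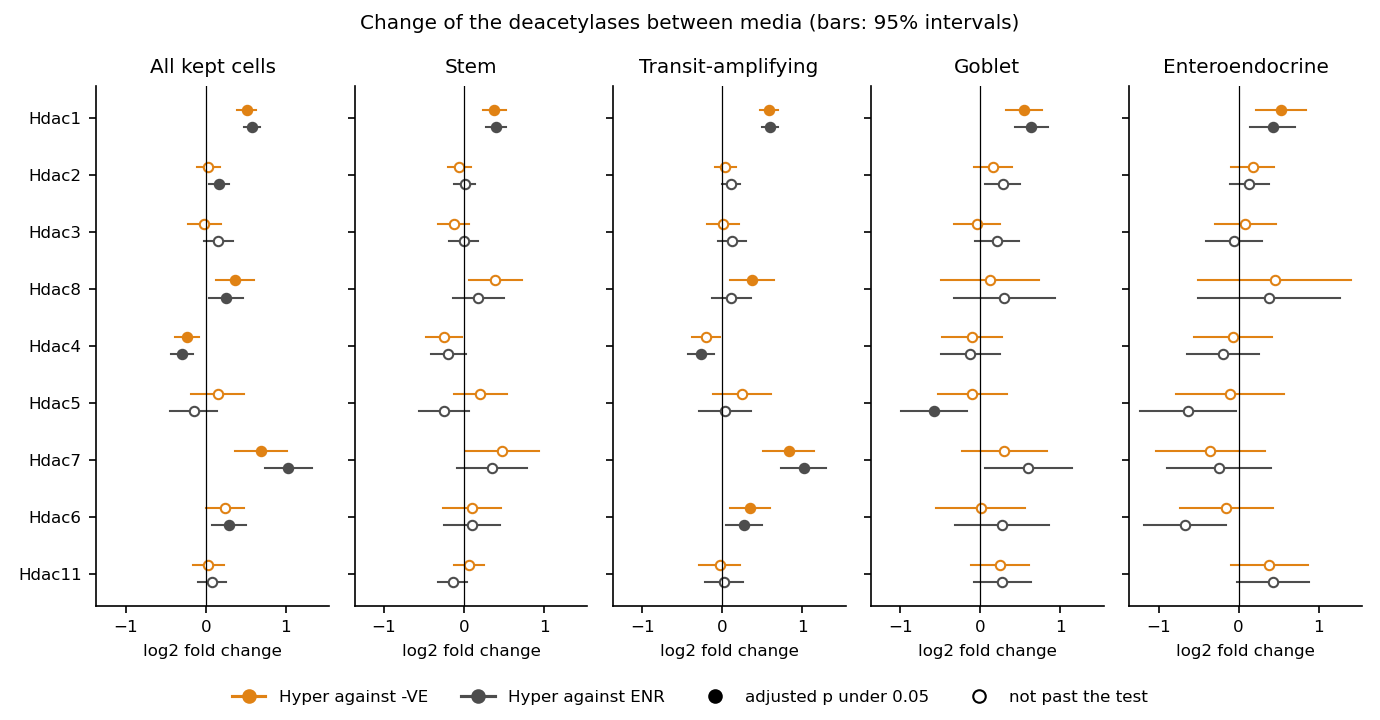
Log2 difference of each tested member between Hyper- and -VE-organoids and between Hyper- and ENR-organoids, in sums over all kept cells and within the stem, TA, goblet and enteroendocrine classes; bars are 95% intervals of the edgeR fit and filled points passed the test. The Hdac1 differences were above 0 in every class (0.38 to 0.64), and Hdac7 was above 0 in TA cells (0.83 and 1.02) and below 0, without passing the test, in enteroendocrine cells (-0.36 and -0.25).

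Whether a member responded to the medium differently in 2 classes was tested directly. For TA minus stem cells, 2 of 9 members passed in Hyper against ENR (15.5% of all genes) and 2 of 9 in Hyper against -VE (11.9%). The first count was 4 with relative log expression size factors (15.7% of all genes) and 1 without ENR replicate 2 (10.5%). The second was 3 without ENR replicate 2 (11.7%) and 1 without Hyper replicate 2 (8.27%). Fits without a -VE library left 1 library in that group, and their counts are not given. The Hdac1 difference was larger in TA cells by 0.18 against ENR (edgeR adjusted p = 0.00462) and by 0.20 against -VE (edgeR adjusted p = 0.00238). Hdac7 was larger in TA cells by 0.66 against ENR (edgeR adjusted p = 0.00345), and by 0.34 against -VE without passing the test (edgeR adjusted p = 0.0984). Without ENR replicate 2 the Hdac7 value against ENR was 0.44 and no longer passed (edgeR adjusted p = 0.131). Hdac3 was larger by 0.13 against -VE (edgeR adjusted p = 0.0399), a call lost without -VE replicate 1 (0.12), -VE replicate 2 (0.17) or Hyper replicate 2 (0.14). The Hdac1 difference against -VE was 0.16 and lost without -VE replicate 1 (edgeR adjusted p = 0.0840). The counts of 2 of 9 were not tested against the shares of all genes. For goblet and enteroendocrine minus stem cells no member passed the test of edgeR between any of the media, the lowest adjusted p being 0.0802, for Hdac6 in enteroendocrine cells. Of all genes, 14.7% (goblet) and 11.3% (enteroendocrine) passed for Hyper against ENR and 3.95% and 4.34% for Hyper against -VE, so that 0 of 9 members was near the share of all genes. At an unadjusted p under 0.05 of edgeR there were 3 members in goblet cells and 2 in enteroendocrine cells for Hyper against ENR, and 0 and 1 for Hyper against -VE. The share of all genes at this unadjusted threshold was not computed, so these counts have no background.

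The members also had unlike levels between cell classes within a library. These levels are given as plain CPM and with no test, since the classes were made from the same counts. Enteroendocrine cells had the highest mean over the 8 libraries for 7 of the 9 tested members, among the 4 classes with at least 50 cells in every library. The share of all genes with their highest mean in this class was not computed, so the count has no background. Hdac6 stood out, with 29.5, 23.9 and 25.7 CPM in enteroendocrine cells with ENR, 22.2 and 12.4 with -VE and 16.2, 15.8 and 14.8 with Hyper medium, against 4.58 to 7.30 in stem cells over all 8 libraries. Enteroendocrine levels of Hdac6 were above those of stem cells in 8 of 8 libraries, by 1.51 ± 0.52 in log2 (SD over libraries), and each value rested on 25 to 43 UMIs. Hdac7 was higher there in 8 of 8 libraries by 1.26 ± 0.60, Hdac4 in 8 of 8 by 1.00 ± 0.26 and Hdac2 in 8 of 8 by 0.36 ± 0.12. Hdac8 was higher in 7 of 8 libraries by 0.53 ± 0.43 and Hdac1 in 7 of 8 by 0.15 ± 0.15, which is about its spread.

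Hdac3 and Hdac11 ran in the other direction and were highest in the stem class, with means of 83.0 and 33.7 CPM. Hdac11 was lower in enteroendocrine than in stem cells in 8 of 8 libraries, by 0.46 ± 0.27 in log2, and lower in TA than in stem cells in 8 of 8, by 0.45 ± 0.14. Hdac3 was lower in goblet than in stem cells in 8 of 8 libraries, by 0.72 ± 0.17, while its stem and TA levels (83.0 and 80.9 CPM) differed by less than their spread over libraries. For Hdac2 too, stem and TA cells lay within their spread (log2 difference 0.040 ± 0.055). In enterocytes, which had at least 50 cells in 6 libraries, Hdac1 averaged 41.2 CPM, Hdac7 1.03 and Hdac6 2.63. In those 6 libraries, stem cells had more than enterocytes in each one, by 0.83 ± 0.16 in log2 for Hdac1, 1.16 ± 0.11 for Hdac2 and 1.71 ± 0.37 for Hdac7. Hdac5 differed from these, with its highest mean, 17.4 ± 3.84 CPM, in enterocytes and 9.06 ± 1.52 in TA cells.

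**Figure D3:**
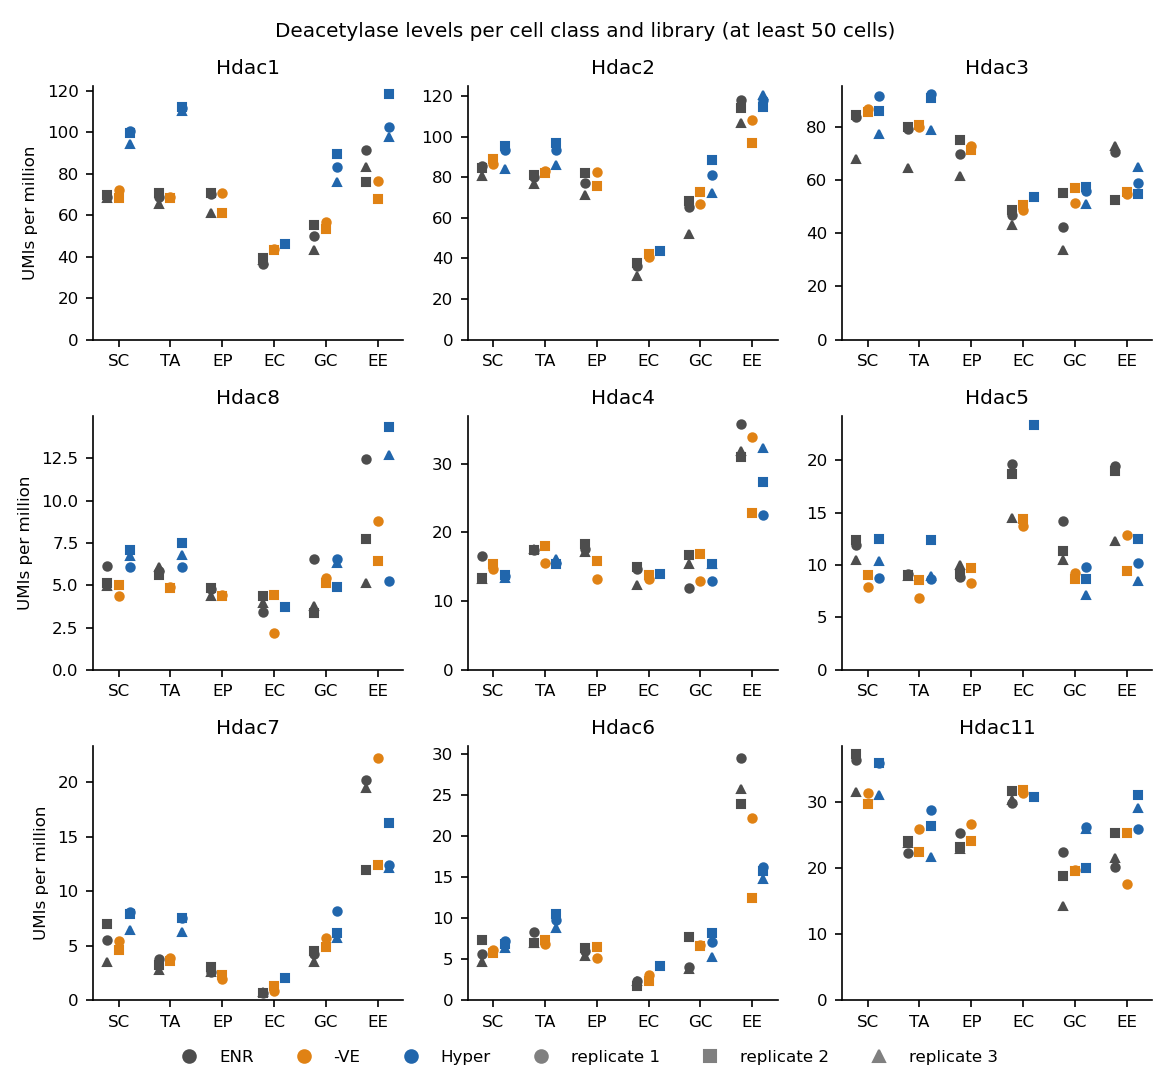
Levels of the members by annotated cell class, in plain CPM; each point is 1 library with at least 50 cells of that class, coloured by medium (SC stem, TA transit-amplifying, EP enterocyte progenitor, EC enterocyte, GC goblet, EE enteroendocrine). Hdac6 reached 12.4 to 29.5 in enteroendocrine cells and 4.58 to 7.30 in stem cells, and Hdac3 was highest in stem and TA cells.

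Over the 32 profiles of 4 classes in 8 libraries, the gene with the most similar profile (Pearson r of log2 CPM, among 8234 genes of at least 10 CPM) was Fkbp5 for Hdac1 (r = 0.958), Tspan7 for Hdac2 (0.961), Cops6 for Hdac3 (0.916) and Phip for Hdac4 (0.954). It was Bckdha for Hdac5 (0.791), Mff for Hdac6 (0.966) and Rtcb for Hdac11 (0.770). Among these 7 members the closest pair was Hdac4 and Hdac6 (0.902), followed by Hdac2 and Hdac6 (0.828). All 3 of these genes had their highest mean of the 4 classes in enteroendocrine cells, and so did Hdac1 and Hdac5. Hdac7 did too but lay under 10 CPM and was not compared. Since Hdac6 reached 10 CPM only through that class, its pairs cannot be read apart from its level there. The profiles share libraries and class composition, so that these values are descriptions.

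Genes whose transcripts are known to rise in many cell types under histone deacetylase inhibitors were counted as a list of 4. This list was chosen with earlier results of these data known. H1f0, which encodes a linker histone, was 318, 359 and 286 CPM with ENR, 291 and 285 with -VE and 582, 593 and 476 with Hyper medium. Cdkn1a, the cell cycle inhibitor p21, was 54.7, 63.5 and 67.1, then 57.5 and 36.5, and then 95.3, 82.0 and 116 CPM. For both genes each Hyper library was above each library of the other media. Of the list, these 2 genes passed the test upward against -VE, with log2 differences of 0.93 (edgeR adjusted p = 0.000503) and 1.06 (edgeR adjusted p = 0.00610). Gsn, an actin-severing protein, had a difference of 1.09 (edgeR adjusted p = 0.100) with Hyper libraries spread from 9.07 to 29.4 CPM, and Tgfbr2, a TGF-beta receptor, had 0.17 (edgeR adjusted p = 0.158). Against ENR all 4 passed upward. Of all 16037 genes, 4003 passed upward against -VE and 4727 against ENR. The median of the list was 1.00 against -VE and 0.72 against ENR. Within the stem class the differences from -VE were 1.20 for H1f0, 1.50 for Cdkn1a, 2.14 for Gsn and 0.38 for Tgfbr2, with edgeR adjusted p = 3.14e-05, 0.00114, 0.0189 and 0.00440. Between -VE and ENR 0 of the 4 passed, beside 7.87% of all genes.

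Partners of the deacetylases were counted over all kept cells. Of 37 corepressor and complex subunits, 3 rose and 14 fell in Hyper- against -VE-organoids (median log2 difference -0.17), and 5 rose and 17 fell against ENR (median -0.13), beside 47.5% of all genes past the test in either direction against -VE (4003 higher and 3616 lower) and 56.8% against ENR (4727 higher and 4381 lower). The share of the list was near that of all genes, and its split in direction was not tested. Ncor1, the scaffold of the Hdac3 complex, fell by 0.51 against -VE and by 0.66 against ENR, and Tbl1xr1, a subunit of the same complex, fell by 0.65 and by 0.77. Mta2, a NuRD subunit, fell by 0.55 and by 0.38, while Rcor2, a CoREST subunit, rose by 0.78 and by 1.22 and Phf21a of the same complex rose by 0.58 and by 0.61. These 5 genes were chosen after their values were seen, and each had an edgeR adjusted p of at most 0.0166. Of 6 class IIa partners, 1 rose and 2 fell against -VE and 1 rose and 3 fell against ENR. The one that rose was Mef2c (log2 difference 3.14 against -VE, edgeR adjusted p = 0.00720), which rested on 1 to 5 UMIs per ENR or -VE library and 16 to 28 per Hyper library.

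The enzymes that add acetyl groups and the NAD-dependent deacetylases were counted in the same way. Of 12 histone acetyltransferases, none rose and 7 fell against -VE, with a median of -0.24, and 1 rose and 8 fell against ENR, with a median of -0.33. The 7 sirtuins, which are deacetylases of an unrelated family that use NAD, were split, with 3 higher and 2 lower in both comparisons. These counts stand beside the same shares of all genes, 47.5% against -VE and 56.8% against ENR, and no split in direction was tested. Between -VE and ENR 1 corepressor subunit rose and 1 fell, 1 sirtuin fell, and no acetyltransferase or class IIa partner passed the test, beside 7.87% of all genes.

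In the colon there was 1 library per condition, so no test of DSS was possible and the intervals cover counting error only. The libraries held 1132 kept cells and 19906845 UMIs from normal mice and 1933 cells and 32397122 UMIs after DSS. Hdac1 was 101 CPM (exact Poisson 95% interval 96.8 to 106) in normal and 71.3 (68.5 to 74.3) in DSS crypts, and Hdac4 was 32.9 (30.4 to 35.5) and 22.7 (21.1 to 24.4). Hdac5 was 7.18 (6.05 to 8.46) and 12.6 (11.4 to 13.9), and Hdac11 was 12.3 (10.8 to 13.9) and 19.0 (17.5 to 20.6). For these 4 members the intervals did not overlap, and for the other 6 they did. The share of all genes with intervals apart was not computed, here or in the groups of clusters below, so these counts have no background. Hdac9, at 0.753 and 0.741 CPM, was detected with 15 and 24 UMIs. There were 2.60 Hdac1 UMIs per Hdac2 UMI in normal and 2.04 in DSS crypts.

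The colonic cells were grouped by the clusters of the deposited annotation, which differed in their make-up between the libraries, several clusters coming almost wholly from 1 of them. In 6 of 25 clusters over 50% of cells had a UMI of the leukocyte gene Ptprc. Without these 6 clusters the values were 103 and 71.9 CPM for Hdac1, 32.9 and 22.4 for Hdac4, 6.86 and 12.7 for Hdac5 and 12.4 and 19.8 for Hdac11, again with intervals apart. Hdac7 was 39.7 CPM in normal and 18.2 in DSS cells of the leukocyte-rich clusters, with intervals apart, and 2.78 and 4.17 in the other clusters. In cluster 0, the largest of the leukocyte-rich clusters, it was 44.7 (28.9 to 65.9) and 22.8 (12.8 to 37.6), with intervals that overlapped. Clusters 8, 15 and 21, leukocyte-rich and almost only from the DSS library, had 12.1, 0 and 0 CPM of Hdac7. These values rested on 494794, 246586 and 189380 UMIs of all genes. Cluster 18, leukocyte-rich with 11 normal and 33 DSS cells, had 57.5 CPM from 225939 UMIs, the highest Hdac7 of all clusters. In the cluster annotated as stem (102 normal and 168 DSS cells), Hdac2 was 84.1 and 50.5 CPM, Hdac4 50.0 and 32.4, Hdac5 5.69 and 13.7 and Hdac11 20.3 and 42.6, with intervals apart. Hdac1 was 111 (98.2 to 125) and 94.5 (84.5 to 105) there, with intervals that overlapped.

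Cluster 16, with 59 cells (16 normal and 43 DSS) led by Chgb, Chga, Tph1 and Pyy and thus enteroendocrine-like, had 134 CPM of Hdac6 (exact Poisson 95% interval 102 to 173, 59 UMIs). This pools 83.6 CPM in the normal library (interval 44.5 to 143, 13 UMIs) and 161 in the DSS library (118 to 215, 46 UMIs), with intervals that overlapped. Among the other clusters with at least 50 cells the highest level of Hdac6 was 9.91 CPM, in cluster 13. Of the 4 enteroendocrine markers Chgb and Chga had 10659 and 6335 UMIs in cluster 16, while Cck and Neurog3 had 10 and 3. Hdac7 was 27.2 CPM in cluster 16 (interval 14.1 to 47.6), with 12.9 in normal and 35.1 in DSS cells, from 2 and 10 UMIs. It was 11.7 in the stem cluster and 32.9 and 22.6 in the leukocyte-rich clusters 0 and 11, so cluster 16 was not the highest for Hdac7. The enteroendocrine-like cells of the colon thus had the highest Hdac6 of the colonic clusters of that size, as enteroendocrine cells did among the 4 classes of the organoids.

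**Figure D4:**
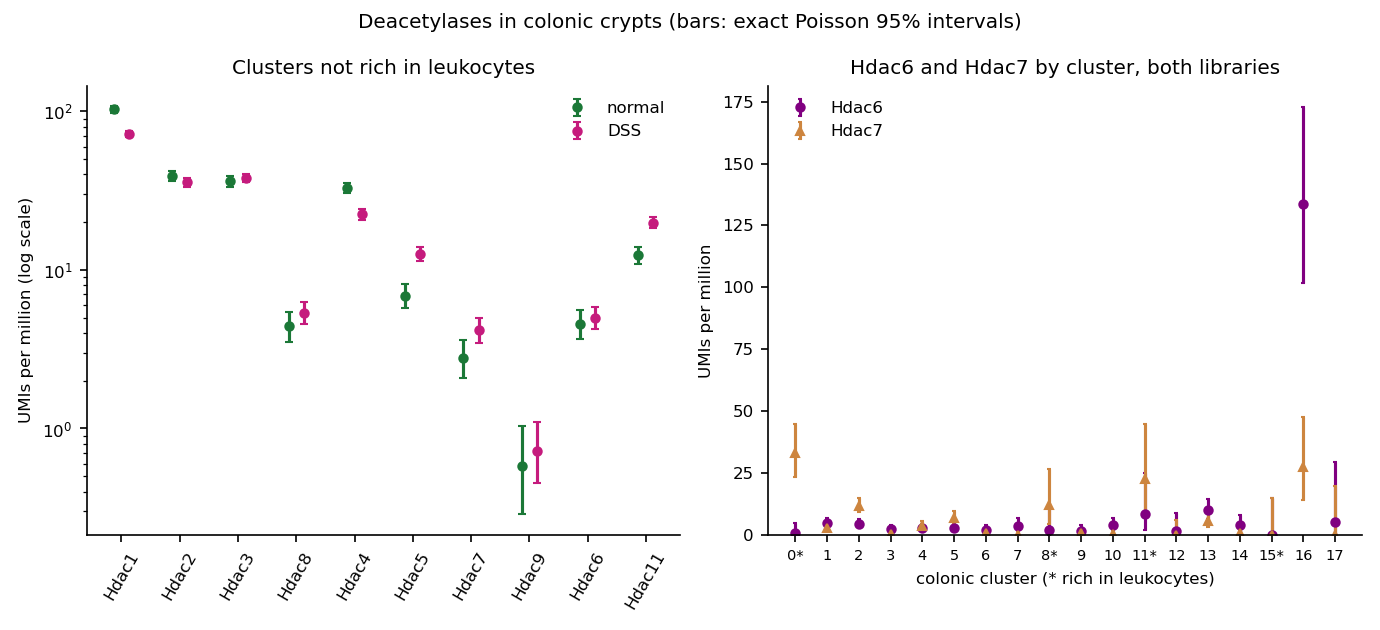
Levels of the members in colonic crypts, in CPM with exact Poisson 95% intervals: on the left, on a log axis, the 10 genes in normal and DSS cells outside the leukocyte-rich clusters (1 library each), and on the right, on a linear axis, Hdac6 and Hdac7 in each cluster of at least 50 cells over both libraries. Hdac1 and Hdac4 were lower in the DSS library (71.9 against 103 and 22.4 against 32.9), Hdac5 and Hdac11 were higher, and Hdac6 stood at 134 in cluster 16 and at most at 9.91 in the other clusters.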

How the data were processed

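Single-cell libraries were prepared with a 10x Genomics 3′ kit (V3). The authors aligned reads to mm10 with Cell Ranger (3.0.0 per the submitters' processing notes), and deposited raw UMI counts per gene and cell, the cells that passed their filters and an annotation made with Seurat 3.1.4. The methods state a minimum of 1500 genes per cell, but the kept cells of each organoid library reached down to between 503 and 611 genes. How doublets were treated is not given in the sources used here, and no doublet caller was run. The deposited table of 25204 kept cells matched the library matrices at all 252040 entries of the members.

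UMI counts were summed per gene and library over all kept cells, and within each class with at least 50 kept cells in each of the 8 organoid libraries (4 classes). One edgeR 4.0.16 model covered the sums of all 8 organoid libraries (TMM, filterByExpr, robust quasi-likelihood F test, R 4.3.3), with Benjamini-Hochberg adjustment over all genes tested. A gene passed the test at an adjusted p under 0.05. Levels are CPM on TMM-scaled library sizes, levels by class are plain CPM, and differences between classes use log2(CPM + 1), which understates the differences of low genes. On simulated counts for Hyper against ENR (16037 genes), the test recovered 58% of 2-fold and 98% of 4-fold changes with 2.5% false calls. The simulation gave every gene the same dispersion and changed 100 genes at each fold. In the real comparison 56.8% of all genes passed, so these rates need not hold for it. Colonic libraries (1 per group) have exact Poisson 95% intervals and no test.

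The sample titles carry a mark (2, 6 or C for replicates 1, 2 and 3) that was read as a culture series, although no label says that libraries with the same mark share animals or a day. The main fit did not pair libraries, and the mark was used in an alternative only. Deviations from the group means correlated at 0.17 to 0.44 in the 3 ENR and Hyper pairs with the same mark. They correlated at 0.12 to 0.14 in the -VE and Hyper pairs and at 0.062 to 0.16 in the ENR and -VE pairs. Libraries with unlike marks ran from -0.29 to 0.13. The deviations of the 2 -VE libraries mirror each other, so ENR replicate 1 gave 0.16 with the first and -0.16 with the second. A fit with the series as a replicate block was run as an alternative. Others were DESeq2 1.42.0, relative log expression size factors, no filter on low counts, only cells that meet the stated filter (at least 1500 genes, at most 25% mitochondrial), equal cells per class (1170 per library), stem cells thinned to 10000 UMIs, and leaving out each library.

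The members and gene lists were chosen with earlier results of these data known. One gene list is not reported here. All 10 members were named. Of the lists, the genes past the test with at least a 2-fold difference between Hyper and -VE and all 4 inhibitor-response genes were named, and for members of at least 10 CPM the 1 gene with the most similar profile. A further 5 complex subunits were named after their values were seen.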

Additional observations from a re-analysis of the deposited data

Results flagged for a closer look

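For 3 members the difference between media was not the same size in stem and transit-amplifying cells, by the class-by-medium test of edgeR over all genes. This was 2 of 9 members in each comparison with Hyper, beside the 15.5% (against ENR) and 11.9% (against -VE) of all genes that passed. Against ENR the count was 4 with relative log expression size factors (15.7% of all genes). It was 3 without Hyper replicate 1 (16.7%) or 3 (13.4%) and 1 without ENR replicate 2 (10.5%). Against -VE it was 3 without ENR replicate 2 (11.7%) and 1 without Hyper replicate 2 (8.27%). Counts of fits that left 1 -VE library are not given. Hdac1 differed between Hyper and ENR by 0.18 more in log2 in transit-amplifying than in stem cells (SE 0.044, adjusted p = 0.00462), and between Hyper and -VE by 0.20 more (SE 0.044, adjusted p = 0.00238). The first stayed past the test without each library in turn, and the second was 0.16 and lost without -VE replicate 1 (adjusted p = 0.0840). Hdac7 differed between Hyper and ENR by 0.66 more in transit-amplifying cells (SE 0.16, adjusted p = 0.00345). Without ENR replicate 2, whose stem cells had the highest Hdac7 of the ENR libraries, the value was 0.44 (adjusted p = 0.131). Hdac3 differed between Hyper and -VE by 0.13 more in transit-amplifying cells (SE 0.042, adjusted p = 0.0399), and the call was lost without -VE replicate 1 (0.12, adjusted p = 0.272), without -VE replicate 2 (0.17, adjusted p = 0.0868) and without Hyper replicate 2 (0.14, adjusted p = 0.0726). Transit-amplifying cells had medians of 45149 to 59670 UMIs per cell and stem cells of 31294 to 43892, and the part of depth in these differences was not tested.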

How the results depend on the processing

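The direction and the call were kept in 460 of 522 recomputed values, a call was lost in 28, gained in 14, and the sign turned in 20. With the culture series as a replicate block, 5 members passed for Hyper against -VE, 7 for Hyper against ENR and 0 for -VE against ENR over all cells, and 2, 1 and 0 in the stem class. Of all genes 53.4%, 63.9% and 11.4% passed with this block over all cells, and 49.2%, 54.9% and 4.67% in the stem class. With equal cells of each class 3 members passed for Hyper against ENR (Hdac1, Hdac4 and Hdac7), beside 53.4% of all genes. In the stem class for Hyper against -VE, 2 passed with relative log expression factors (Hdac1 and Hdac8, beside 42.4% of all genes) and 3 with cells thinned to 10000 UMIs (Hdac1, Hdac7 and Hdac8, beside 33.9%). The differences of Hdac1 and Hdac7 summed over all cells passed in both comparisons under every alternative run.

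Leaving out 1 library at a time gave 2 to 5 members for Hyper against -VE, 3 to 6 for Hyper against ENR and 0 for -VE against ENR over all cells, and 1 to 3, 1 to 2 and 0 in the stem class. The share of all genes that passed then moved too, from 27.4 to 47.6%, 48.0 to 54.5% and 1.16 to 10.3% over all cells and from 25.6 to 44.1%, 38.9 to 46.6% and 0.187 to 4.13% in the stem class. The 2 members were Hdac1 and Hdac7, without -VE replicate 2 (27.4% of all genes), and the 3 were Hdac1, Hdac4 and Hdac7, without ENR replicate 3. In the stem class 3 members passed against -VE without Hyper replicate 1 and 3 without ENR replicate 3, and 2 passed against ENR without ENR replicate 2. Class-by-medium differences were 4 in all, 2 in each comparison with Hyper. Against ENR there was 1 without ENR replicate 2 (10.5% of all genes), and 3 without Hyper replicate 1 (16.7%) or 3 (13.4%). Against -VE there was 1 without Hyper replicate 2 (8.27%) and 3 without ENR replicate 2 (11.7%). With relative log expression factors the counts were 4 against ENR (15.7%) and 2 against -VE. Without a -VE library that group held 1 library, so the class-by-medium counts of such fits are left out for both comparisons with Hyper. Without -VE replicate 1 the Hdac1 and Hdac3 differences against -VE were 0.16 and 0.12. These leave-outs and their scaling alternative were added after the data had been seen.

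Every sign that turned belonged to a difference that did not pass the test. For Hyper against -VE over all cells, Hdac3 was 0.047 with the replicate block. Without single libraries Hdac3 ranged from -0.062 to 0.046 (positive without Hyper replicate 3), Hdac5 from -0.012 to 0.28 (negative without Hyper replicate 2) and Hdac11 from -0.037 to 0.13 (negative without Hyper replicate 1, at -0.018, and without -VE replicate 2). In the stem class against -VE, Hdac2 was 0.043 in thinned cells and Hdac11 ranged from -0.00061 (without -VE replicate 2) to 0.12 without single libraries. In the stem class against ENR, Hdac2 ranged from -0.0017 (without Hyper replicate 2) to 0.055 without single libraries and Hdac6 was -0.0087 in thinned cells. Hdac3, at -0.0021, was 0.031 with relative log expression factors, 0.031 by DESeq2, 0.040 without the filter, 0.0020 with the replicate block, 0.0080 in thinned cells and -0.051 to 0.064 without single libraries. The cause of these changes was not tested. With 3 UMIs in the organoids Hdac9 could not be tested, and the recovery of differences under 2-fold was not simulated.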

Other observations

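The annotation also held 17 organoid cells in a class labelled TC, with 77102 UMIs together. They carried 8 UMIs of Hdac1, 2 each of Hdac2 and Hdac3, 1 each of Hdac8, Hdac4, Hdac5 and Hdac11 and none of Hdac7, Hdac9 or Hdac6.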
